A study of Mus musculus with 5 samples.

Results

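The genes described here are 8 mouse genes of mismatch repair and of the steps around it, a pathway known to modify how far the expanded CAG repeat of huntingtin grows. They were taken by name, as Msh3, Msh6, Mlh3, Pms1, Pms2, Lig1, Exo1 and Fan1, out of the 22380 protein-coding genes of the GENCODE vM1 annotation. Their chromatin was read from peaks of histone H3 acetylated at lysine 9 (H3K9ac), and a peak was given to a gene when its called centre lay within 10 kb of any transcript start of that gene. By this rule 19 of the 34286 peaks of the list from treated cells and 20 of the 33355 peaks of the list from untreated cells belonged to these genes.

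The peaks came from STHdh Q111 cells, a conditionally immortalized line of striatal progenitor cells. All groups shared the C57BL/6 background, the Q111/Q111 genotype with an expanded CAG repeat in both copies of the huntingtin gene, and serum starvation for 24 h. Cells of 2 samples received 4-deoxypyridoxine hydrochloride (DOP), an inhibitor of sphingosine-1-phosphate lyase, at 4 mM for those 24 h, cells of 2 other samples were serum-starved without DOP, and 1 sample of untreated cells was precipitated with normal rabbit IgG. By the methods of the study, cells without DOP in treatment experiments received the vehicle (DPBS), and they are called untreated here. The deposit analysed here holds 1 peak list per condition, so the values below compare 2 lists of 1 cell line, have no replicate error and carry no test.

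Mismatch repair begins when a MutS complex recognizes a mispaired base or a small loop of extruded DNA. A MutL complex is then recruited and can nick the strand, an exonuclease removes the stretch around the error, and a polymerase and a ligase restore it. At a long CAG repeat the same proteins act on slipped loops, and their processing is known to lengthen the repeat in striatal cells over life, while the nuclease FAN1 is known to restrain that growth. H3K9ac is a mark of active promoters and usually flanks the start sites of transcribed genes.

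Promoter sequence bears on how these peaks can be read, because 4 of the 8 genes have a start on the opposite strand within 1 kb, against 12% of all 22380 genes. Among them, Pms1 shares its start region with Ormdl1 (a regulator of sphingolipid synthesis), Pms2 with Aimp2 (a scaffold of the aminoacyl-tRNA synthetase complex) and Lig1 with 6330408A02Rik. A peak beside such a start lies near both genes, and the lists do not tell them apart. The stretches that separate these 3 pairs of starts are short, and they are printed here from the mm9 genome, 5′ to 3′ on the strand of the repair gene. They lie at chr1:53353863-53353938 upstream of Pms1 (minus strand), at chr5:144670717-144670832 upstream of Pms2 (plus strand) and at chr7:13864071-13864164 upstream of a Lig1 start (plus strand). The stretch at Lig1 lies inside the annotated gene, which also has a start farther upstream. Capitals mark CCAAT boxes and GC boxes, in either orientation.
Pms1: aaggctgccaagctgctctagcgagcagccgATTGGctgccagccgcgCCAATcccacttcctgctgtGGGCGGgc
Pms2: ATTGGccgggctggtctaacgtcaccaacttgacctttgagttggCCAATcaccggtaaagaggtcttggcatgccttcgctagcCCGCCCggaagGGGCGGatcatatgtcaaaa
Lig1: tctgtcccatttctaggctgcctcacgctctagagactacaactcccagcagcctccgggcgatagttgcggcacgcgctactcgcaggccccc

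The 76 bases between Pms1 and Ormdl1 held 2 CCAAT boxes in opposite orientations and 1 GC box, and the 116 bases between Pms2 and Aimp2 held 2 CCAAT boxes and 2 GC boxes. In the 94 bases between that Lig1 start and the start of its partner none of the searched motifs lay whole.

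Msh6 and Mlh3, which have no such neighbour, are shown for contrast, since the lists differed just upstream of Msh6 and neither list had a peak at the start of Mlh3 itself. Their 200 bases before the start are chr17:88374190-88374389 on the plus strand for Msh6 and chr12:86611542-86611741 on the minus strand for Mlh3. Capitals again mark CCAAT and GC boxes, and the last capitals of Mlh3 mark an NRF1-type match.
Msh6: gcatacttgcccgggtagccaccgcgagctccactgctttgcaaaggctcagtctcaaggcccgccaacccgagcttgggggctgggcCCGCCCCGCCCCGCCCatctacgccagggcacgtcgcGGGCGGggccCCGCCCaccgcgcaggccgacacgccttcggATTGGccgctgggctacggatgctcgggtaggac
Mlh3: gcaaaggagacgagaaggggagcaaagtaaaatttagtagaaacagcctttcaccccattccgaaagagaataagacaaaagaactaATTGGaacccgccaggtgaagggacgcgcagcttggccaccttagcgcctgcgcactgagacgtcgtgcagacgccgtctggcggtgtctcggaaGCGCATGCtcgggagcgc

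Over a fixed window from 250 bases before to 50 after a start, GC boxes (GGGCGG on either strand) were found at 6 of the 8 genes and in 45.3% of all promoters, and CCAAT boxes (CCAAT) at 5 of the 8 and in 35.4%. An E2F-type match (TTTGGCGC, TTTCCCGC, TTTGGCGG or TTTCCCGG, either strand), the letters bound by factors of the cell cycle, stood at Msh3, Msh6 and Lig1, against 3.99% of all promoters. Of the 8 windows, that of Mlh3 held the NRF1-type letters GCATGCGC, which 3.15% of all promoters hold. None of the 8 windows held a CRE (TGACGTCA) or a TATA box (TATAAA), which stood in 2.22% and 12.5% of all promoters. The GC content of the windows ran from 51.3% at Fan1 to 71.7% at Msh6, beside a median of 57% over all genes. The ratio of observed to expected CpG was 0.61 at Fan1 and between 0.75 and 1.1 at the other genes, beside a median of 0.58. A match describes letters of the reference and does not show that a factor was bound in these cells.

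With DOP, 7 of the 8 genes had a peak within 10 kb of a start, and without DOP all 8 did, while 57.7% and 56.9% of all protein-coding genes did in those lists. Within 1 kb of a start the numbers were 6 of 8 with DOP and 7 of 8 without, beside 51.4% and 50.8% of all genes. The gene without a DOP peak was Lig1, and the gene whose peaks lay farther than 1 kb away was Mlh3. Of the 19 DOP peaks 16 lay within 1 kb of a start, and 18 of the 20 untreated peaks did. They stood on both sides of the start, with 9 DOP peaks upstream and 10 downstream, and 9 untreated peaks upstream and 11 downstream. The start nearest to the peak belonged to the repair gene itself for 13 DOP and 12 untreated peaks, and to a neighbouring gene for 6 and 8.

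**Figure D1:**
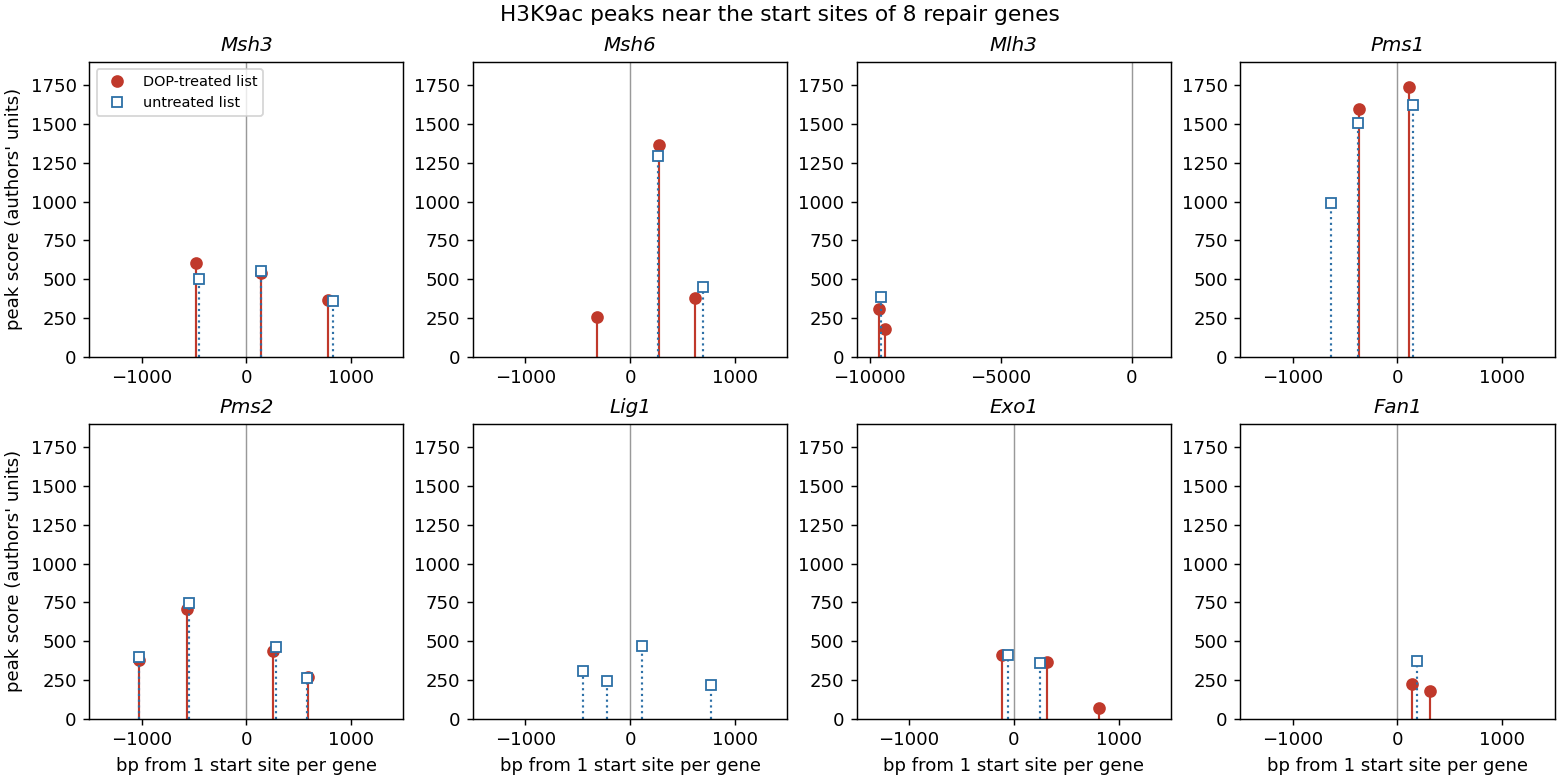
Score of each H3K9ac peak (vertical axis, authors' units) against the distance of its centre from 1 start site of the gene, in bp along the direction of transcription (horizontal axis, with a longer range for Mlh3), for the DOP-treated list (filled circles) and the untreated list (open squares). The lists pair up peak by peak at Msh3 and Pms2, Lig1 carries 4 untreated peaks and no DOP peak, and the peaks given to Mlh3 lie more than 9 kb upstream of its start.

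Each peak has a score, the authors' own value, with a definition that the lists do not give. The lowest score was 23.0 in the DOP list and 21.0 in the untreated list, and the medians were 418.7 and 399.8. Where a peak had no other peak of its list within 1 kb, its score was a whole number (within 0.05) in 97.9% of cases in both lists. Among clusters of neighbouring peaks with at least 1 fractional score, the sum was whole in 7561 of 8203 clusters of the DOP list and in 7378 of 8051 of the untreated list. Scores are therefore given below for each peak, with their percentile in the list, and also summed over the peaks of a gene. The depth of the libraries is unknown from the lists.

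Msh3 and Msh6 are the recognition subunits. Msh3 lies at chr13:92981836-93124958 on the minus strand and encodes the subunit of the MutS complex that binds larger extruded loops. In the DOP list its 3 peaks scored 604.0, 538.0 and 364.0, at percentiles 67, 61.6 and 43.9 of the list. In the untreated list its 3 peaks scored 499.0, 555.0 and 360.0, at percentiles 59.9, 64.9 and 45.5. Every Msh3 peak had an overlapping counterpart in the other list, with centres 24, 4 and 48 bp apart. The highest DOP peak, at chr13:93125338-93125537, was centred 479 bp upstream of Msh3, and the middle peak lay in a coding exon of Msh3. The third was centred in the 5′ UTR of Msh3, 288 bp past the nearest start in the DOP list and 336 bp past it in the untreated list. The summed score was 1506.0 with DOP and 1414.0 without, a ratio of 1.07, and the upstream peak differed most, with a 1.21-fold higher score in the DOP list.

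Msh6, at chr17:88374390-88390223 on the plus strand, encodes the subunit that binds base mismatches and the smallest loops. Its highest peak stood in a coding exon, 280 bp past the start with DOP (chr17:88374571-88374770) and 269 bp past it without (chr17:88374560-88374759). That peak scored 1362.9 with DOP and 1294.8 without, at percentiles 95 and 94.2, so Msh6 carried a peak among the highest of each list. A further peak in an intron of Msh6 scored 380.1 with DOP and 452.2 without, with centres 82 bp apart. The DOP list alone held a peak upstream of the start, at chr17:88373972-88374171, with a score of 256.0 (percentile 31). Its centre was 588 bp from the nearest untreated peak, and it lay upstream of the stretch printed above. The summed score was 1999.0 with DOP and 1747.0 without, a ratio of 1.14, and over the shared peaks alone the sums were 1743.0 and 1747.0.

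Mlh3, Pms1 and Pms2 encode subunits of MutL complexes. Mlh3, at chr12:86575479-86611541 on the minus strand, encodes the subunit of the endonuclease complex that also acts in meiotic crossing-over. No peak of either list was centred within 1 kb of a Mlh3 start. The peaks that the 10 kb rule gave to it stood at the start of Acyp1, an acylphosphatase gene, where the DOP list had peaks scoring 308.7 and 180.3, centred 9632 and 9424 bp upstream of Mlh3. The untreated list had 1 peak there, scoring 383.0 and centred 9572 bp upstream, which both DOP peaks overlapped. The sums were 489.0 and 383.0, a ratio of 1.28, and they describe the start of Acyp1 rather than that of Mlh3. Beyond 10 kb, the next peak lay 17711 bp from a Mlh3 start in the DOP list and 17730 bp away in the untreated list.

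Pms1 encodes a MutL subunit with no known nicking activity of its own, and lies at chr1:53246031-53353862 on the minus strand. It carried the highest scores of the 8 genes. The peak in its 5′ UTR scored 1739.3 with DOP (chr1:53353602-53353801) and 1623.7 without (chr1:53353564-53353763), at percentiles 98.2 and 97.3. On the other side of the 76-base stretch printed above, in an intron of Ormdl1, a shared peak scored 1600.7 with DOP and 1510.3 without. The untreated list alone held a further peak in that intron, at chr1:53354348-53354547, with a score of 990.0 (percentile 87.5) and centred 272 bp from the nearest DOP peak. The summed score was therefore lower with DOP, at 3340.0 against 4124.0, a ratio of 0.81. The shared peaks alone gave 3340.0 and 3134.0, a ratio of 1.07, so the order of the lists at Pms1 turned with the peak inside Ormdl1.

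Pms2, at chr5:144670833-144698178 on the plus strand, encodes the MutL subunit that carries the nicking activity of canonical mismatch repair. It had 4 peaks in each list, with centres between 1 and 24 bp apart. From upstream to downstream they scored 380.3, 704.7, 437.9 and 270.1 with DOP. In the same order they scored 398.2, 744.8, 462.0 and 263.0 without DOP. The first 3 thus scored slightly lower with DOP and the fourth slightly higher, with ratios from 0.95 to 1.03. Both upstream peaks lay in an intron of Aimp2, and the highest of them was at percentile 73.7 with DOP (chr5:144670170-144670369) and 77.5 without (chr5:144670187-144670386). The downstream peaks were centred in noncoding exons of Pms2. The summed scores of 1793.0 and 1868.0 gave a ratio of 0.96.

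Exo1 and Lig1 act after recognition. Exo1, at chr1:177810909-177841527 on the plus strand, encodes the exonuclease that degrades the nicked strand. Its peak next to the start scored 412.2 with DOP (chr1:177810702-177810901) and 413.1 without (chr1:177810757-177810956), centred 108 and 53 bp upstream. A peak in an intron scored 366.8 with DOP and 359.9 without. The DOP list alone held a further intronic peak, 811 bp past the start at chr1:177811621-177811820, with a score of 70.0 at percentile 6.12, so that it was low within its list. The sums were 849.0 and 773.0, a ratio of 1.1, and 779.0 and 773.0 over the shared peaks alone.

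Lig1 encodes DNA ligase I, which seals the nick left by repair and joins Okazaki fragments, and lies at chr7:13862632-13896782 on the plus strand. It was the gene at which the lists differed most, with 4 peaks in the untreated list and none in the DOP list. The highest untreated peak, at chr7:13864202-13864401, scored 471.3 (percentile 57.4) and was centred in the 5′ UTR of Lig1, 117 bp past a start. An intronic peak scored 217.0 at percentile 27.5, centred 338 bp past the nearest start. On the other side of the stretch printed above, peaks scored 309.6 and 244.1 at percentiles 39.4 and 31.1. They were nearer to the start of 6330408A02Rik but also lay in an intron of Lig1. None of the 4 was among the highest of the list, and their sum of 1242.0 placed Lig1 at percentile 43.7 of the genes with an untreated peak. Why the DOP list held no peak there was not tested, and the read coverage of the DOP samples at Lig1 was not analysed here.

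The nearest DOP peak lay 153309 bp from a Lig1 start, and the nearest further untreated peak 153236 bp. The DOP list was empty from a peak centred at chr7:13709323 to the next at chr7:15874482, a stretch of 2165159 bp in which the paired start of Lig1 stood 154842 bp from the near end. The untreated list held 6 peaks in that stretch, of which 4 were those at Lig1 and the other 2 overlapped the DOP peaks at its ends. The Lig1 peaks were thus the difference between the lists over that stretch. Of all 34265 stretches between neighbouring DOP peaks, 24644 held an untreated peak and 253 held at least 4. Untreated peaks without any DOP peak within 10 kb were found at 2.73% of the 13272 genes that had any peak, and at 1 of the 8 repair genes. Those 362 genes had a median of 1 untreated peak and a median summed score of 82.4, and 7 of them had a larger summed score than Lig1. Of the 4516 genes with at least 4 untreated peaks 2 had no DOP peak (0.0443%), and these were Lig1 and 6330408A02Rik, which share the peaks. In the other direction 535 genes had DOP peaks only, and 3 of them had at least 4 (Cyp1b1, Rapgef3 and Ripply3, named after their values were seen).

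**Figure D2:**
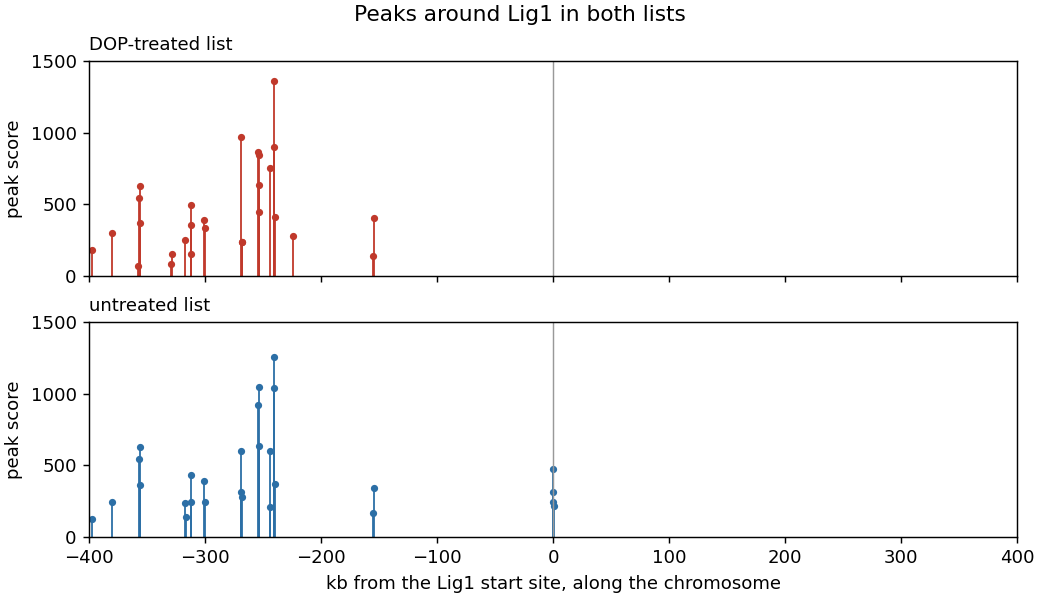
Score of each peak (vertical axis, authors' units) against its distance in kb along chromosome 7 from the Lig1 start next to 6330408A02Rik (horizontal axis), with DOP-treated peaks on top and untreated peaks at the bottom. Both lists hold peaks left of the start, the last DOP peak at 154842 bp from it, and the 4 peaks at Lig1 are in the untreated list alone.

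Fan1, at chr7:71491644-71518981 on the minus strand, encodes the nuclease of DNA interstrand crosslink repair whose loss is known to speed repeat growth. Its highest DOP peak was the lowest such peak of the 7 genes. The DOP list had peaks scoring 220.9 in the 5′ UTR (chr7:71518740-71518939, percentile 26.4) and 180.1 in an intron. The untreated list had 1 peak between them, scoring 371.0 at percentile 46.8 (chr7:71518697-71518896), which both DOP peaks overlapped. The sums were 401.0 and 371.0, a ratio of 1.08, so that the same place was listed as 2 peaks in the DOP list and as 1 in the untreated list with a similar total. At Acyp1 beside Mlh3 there were also 2 peaks against 1, but the total was 1.28-fold higher in the DOP list.

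Counted by gene, the DOP list held more peaks at 4 of the 8 genes (Msh6, Mlh3, Exo1 and Fan1), as many at Msh3 and Pms2, and fewer at Pms1 and Lig1. Over the 13272 genes that had any peak these outcomes were found at 32.5%, 39% and 28.5%. The direction of this count turned with the peaks used, since with the top 50% of each list by score 0 of the 8 genes had more DOP peaks and 4 had fewer. The shares of all genes under that filter are not given here, so whether this outcome is unusual cannot be told. The same pair of peak numbers as at Msh3 was found at 1125 genes, among them Pold3 of the listed partner genes, and the pair of Msh6 and Exo1 at 846 genes, among them Pold4. The pair of Mlh3 and Fan1 was found at 518 genes, that of Pms1 at 751 (with Rfc5 and Rpa1 among the partners), that of Pms2 at 692 (with Pold2) and that of Lig1 at 2. Pairs such as these were thus common, apart from that of Lig1.

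Counted by peak, 2 of the 19 DOP peaks (10.5%) and 5 of the 20 untreated peaks (25%) had no overlapping peak in the other list. Near all protein-coding starts the shares were 16.2% of the DOP and 13.3% of the untreated peaks. The peaks without a counterpart were those described at Msh6 and Exo1 in the DOP list, and the 4 at Lig1 and 1 at Pms1 in the untreated list. Where peaks overlapped, their centres were 38 bp apart in the median over the DOP peaks and 24 bp over the untreated peaks, and at most 148 and 82 bp.

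Summed by gene, the ratio of the DOP to the untreated score could be formed for 7 of the 8 genes, and ran from 0.81 at Pms1 to 1.28 at Mlh3 with a median of 1.08. Over the 12375 genes with peaks in both lists the median was 1.07, the middle 50% lay between 0.97 and 1.2, and the genes at percentiles 5 and 95 had ratios of 0.81 and 1.55. Msh3 was at percentile 47.9 of these genes, Fan1 at 51.9, Exo1 at 55.9 and Msh6 at 65.3. Pms2 was lower, at percentile 22.6, and Mlh3 higher, at percentile 83. Pms1, at percentile 4.99, was near the low end, through the untreated peak in the Ormdl1 intron. Over shared peaks alone the ratios ran from 0.96 at Pms2 to 1.28 at Mlh3 with a median of 1.07, beside a median of 1.06 and quartiles of 0.98 and 1.16 over 12317 genes.

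**Figure D3:**
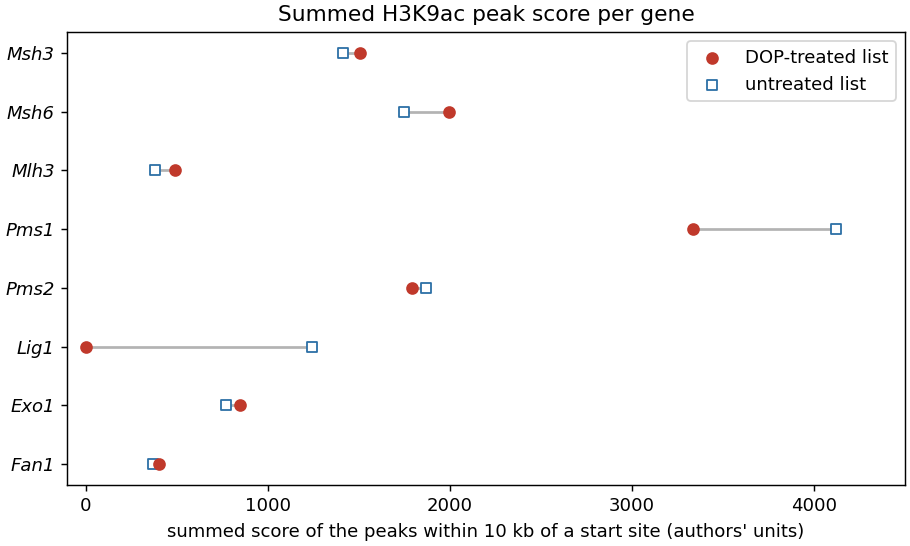
Sum of the peak scores within 10 kb of a start (horizontal axis, authors' units) for each of the 8 genes (vertical axis), with the DOP-treated list as filled circles and the untreated list as open squares joined by a line. Lig1 stands at 0 with DOP and at 1242.0 without, Pms1 is lower with DOP (3340.0 against 4124.0), and the other genes differ by at most 1.28-fold.

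**Figure D4:**
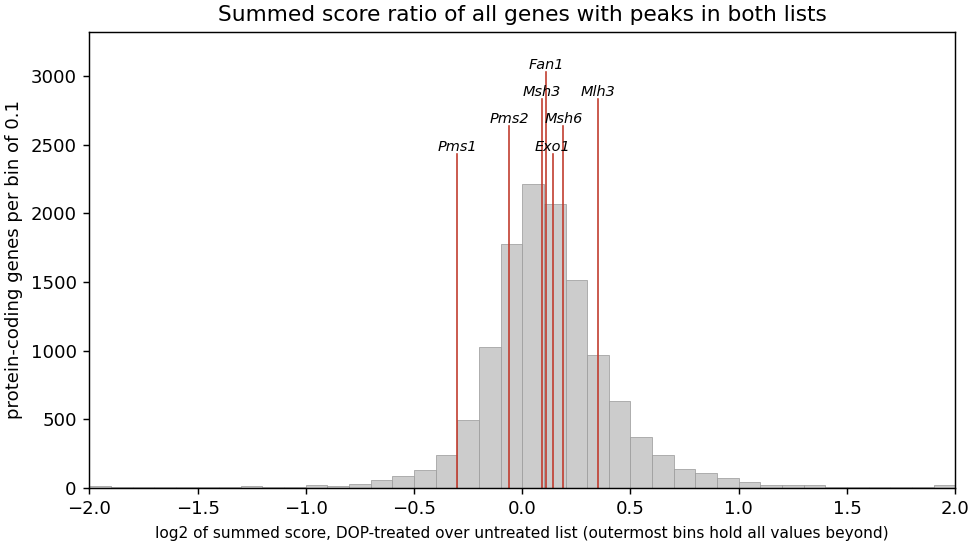
Number of protein-coding genes (vertical axis) by the log2 of their summed score in the DOP-treated list over that in the untreated list (horizontal axis, bins of 0.1), with a labelled line for each of the 7 repair genes with peaks in both lists. The lines run from -0.30 at Pms1 to 0.35 at Mlh3 around the median of all genes, 0.10.

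Peak by peak, the 17 DOP peaks with a counterpart had score ratios from 0.47 to 1.21 with a median of 0.97, and 7 of them scored higher than their counterpart. Over all 27425 such peaks the median ratio was 1.07, with quartiles of 0.89 and 1.28, and 60.7% scored higher in the DOP list. With each score divided by the median of its own list, 4 of the 17 and 53.5% of all such peaks did, and the median ratios were 0.93 and 1.02. The lowest ratios of the repair genes, 0.47 and 0.81 at Mlh3 and 0.49 and 0.6 at Fan1, were those of the paired DOP peaks that overlap a single untreated peak. At the same places the summed score was higher in the DOP list, so the direction there depended on whether peaks or genes were compared.

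The other genes of the pathway were read from a list of 18 mismatch repair partners, which holds the remaining MutS and MutL genes, the clamp Pcna and its loader, the single-strand binding proteins and DNA polymerase delta. All 18 had peaks in both lists, 60 with DOP and 63 without. The DOP list held more peaks at 3 of them, as many at 8 and fewer at 7, beside 32.5%, 39% and 28.5% of all genes that had any peak. In each list 6 of these peaks had no counterpart, beside 16.2% of the DOP and 13.3% of the untreated peaks near all protein-coding starts. Their summed score ratios ran from 0.86 to 1.81 with a median of 1.08, beside 1.07 over all genes. Rfc4, a subunit of the clamp loader, had 9 peaks with DOP and 5 without and summed scores of 5994.0 and 4930.1. Msh5 and Msh4, which encode the meiotic MutS complex, had 6 and 8 peaks and 3 and 4 peaks, in the order DOP and untreated, with ratios of 1.12 and 1.07. Within 1 kb of a start, Msh4 had 0 peaks in either list, so its values describe places away from its own start. Msh5 had 2 peaks within 1 kb in each list, and Rfc4 had 3 with DOP and 1 without. The ratio of 1.81 was that of Pold4, a small subunit of polymerase delta, with 3 and 2 peaks and sums of 955.0 and 528.0.

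**Figure D5:**
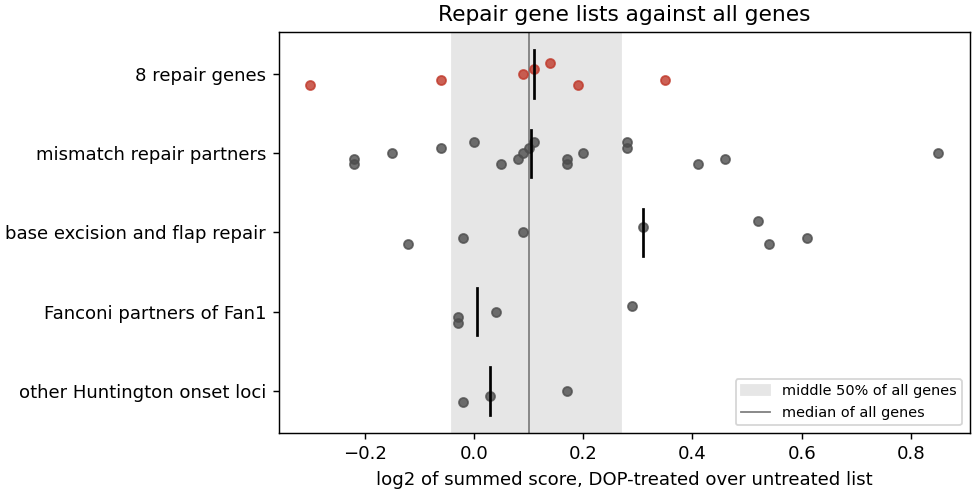
Log2 of the summed score in the DOP-treated over the untreated list (horizontal axis) for the genes of 5 lists (vertical axis), with a point per gene with peaks in both lists and a black bar at the median of each list, and with the median (grey line) and middle 50% (grey band) of all such genes. The medians of the 8 repair genes and of their 18 partners, both 0.11, lie next to that of all genes, 0.10.

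The labelled cell type was checked against marker genes, for which a peak near a start is not expression. Of 8 neural progenitor markers 3 had a peak with DOP (Vim, Dlx1 and Dlx2) and 2 without (Vim and Dlx1), while Nes, Sox2, Gsx2 and Pax6 were among those with none in either list. Of 8 markers of mature striatal neurons Ppp1r1b and Foxp1 had peaks in both lists, as did Slc1a2 among 4 astrocyte markers, and among 4 oligodendrocyte markers Mog had peaks in both and Mbp with DOP alone. Within 1 kb of a start, Ppp1r1b had 1 DOP peak and 0 untreated peaks, and Dlx2 and Mog had 0 in either list. The highest peaks of Slc1a2 were low, at percentile 10.1 with DOP and 6.54 without. That of Mbp was at percentile 7.58 with DOP. All 4 fibroblast or mesenchymal markers (Col1a1, Col1a2, Col3a1 and Twist1) had peaks in both lists. Over all protein-coding genes 57.7% had a DOP peak and 56.9% an untreated peak within 10 kb. The highest peaks with DOP and without were at percentiles 23.5 and 25.5 for Col1a2 and 25.4 and 32.6 for Col3a1. They were at 89.6 and 63.7 for Col1a1 and 95.5 and 87.7 for Twist1. For Vim they were at 98 and 94, for Foxp1 at 89.8 and 88.7 and for Ppp1r1b at 80.2 and 85.4. The lists thus hold peaks at mesenchymal markers, low ones at Col1a2 and Col3a1, and high peaks at Vim, Foxp1 and Ppp1r1b. They lack peaks at several defining markers of neural progenitors, in both conditions alike. The part of cell type in the values of the repair genes was not tested.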

How the data were processed

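Chromatin was immunoprecipitated with an antibody to H3K9ac from 2 DOP-treated and 2 untreated samples of STHdh Q111 cells, and with IgG from 1 untreated sample. According to the methods of the study, the authors used Bowtie 2 for alignment to mm9 and GPS for peak calling, whereas the submitters' processing notes name BWA 0.7.10 and the track lines name GEM events. How the samples of a condition entered a call, whether the IgG sample was its control and the threshold are not given in the sources used here. For each condition the deposited list holds more peaks than the study reports, so it is not the same set of calls. The deposited lists give each peak a position and a score by the authors, with no stated unit or normalization, so scores were ranked within a list, and ratios between lists assume that both are on 1 scale.

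Peaks were read as intervals of 200 bp around the called centre and counted as shared where they overlapped by at least 1 bp. GENCODE vM1 on NCBIM37, which is mm9, supplied the starts, exons and UTRs of protein-coding genes, and no peak ran past a chromosome end. A promoter was the window from 250 bases before to 50 after the start nearest to the highest peak, read from that genome, because the table of RefSeq promoters at hand was of another build. For a gene without a peak, the most upstream annotated start was used. The functions were tested on simulated data of 200 genes and recovered 4 of 4 planted answers. Alternatives were windows of 1, 5 and 20 kb, the nearest start alone, protein-coding transcripts alone, a score of at least 100, the top 50% of each list, other overlap rules, other percentiles, scores divided by the list median, and a promoter of 500 before to 250 after.

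The 8 genes, the lists and the marker genes were chosen with earlier results of these data known. All 8 genes are named, and from each list at most 4 genes, those with a peak in 1 list only or in neither and then those with the largest difference in peak number, and also neighbours of a start or peak and list genes with the same pair of peak numbers. Pold4 was also cited for its ratio after its values were seen. Some listed genes are not reported here by name. Read counts, the IgG sample and the RNA-seq experiment were not analysed here. Scripts ran under Python 3.11.15 with pandas 2.3.3, numpy 2.4.6, matplotlib 3.10.9 and pysam 0.24.0, after indexing by samtools 1.23.1.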

Additional observations from a re-analysis of the deposited data

How the results depend on the processing

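Each condition has 1 deposited list, so no replicate could be left out. No paired analysis was possible because the replicates of a condition are not separate columns or lists. A count or value was taken as moved when it changed by more than 1.5 times, and 21 of the 128 values computed under an alternative did, 13 of them among the counts that answer a comparison. With the top 50% of each list alone, 4 of the 8 genes had a DOP peak, with 7 DOP peaks and 11 untreated peaks, 0 genes had more DOP peaks and 4 had fewer. These counts have no share over all genes under the same filter beside them. With each peak given to its nearest start alone, the untreated peaks fell to 12, of which 2 were found in that list only, and 1 gene had fewer DOP peaks, since peaks nearer to another gene, such as those at Aimp2, Ormdl1, Acyp1 and 6330408A02Rik, then left the repair genes. The DOP peaks without a counterpart, 2 as reported, numbered 1 with a score of at least 100, 0 in the top 50% and with centres within 1 kb counted as shared, and 4 with a reciprocal overlap of 50%. In the wider promoter 2 genes held the NRF1-type letters, beside 4.59% of all promoters. The other 8 were percentiles of summed scores at Msh6, Mlh3, Exo1 and Fan1. The ratio of summed scores, 1.08 in the median, was 1.07 in a window of 1 kb and with a score of at least 100, alternatives added after seeing the data. What is limited by depth cannot be told from the lists.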

Other observations

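Further genes tied to repeat expansion were read from 3 lists. The base excision and flap repair list, which removes oxidized bases and displaced ends, had peaks at 7 of 7 genes in both lists, with 23 peaks with DOP and 21 without, and 6 and 2 of these had no counterpart, beside 16.2% of the DOP and 13.3% of the untreated peaks near all protein-coding starts. Its summed score ratios ran from 0.92 to 1.52 with a median of 1.24, beside 1.07 over all genes. Neil1, a DNA glycosylase, had 4 peaks with DOP and 2 without and sums of 1301.0 and 854.0. Apex1, the abasic site endonuclease, had 6 and 5 peaks with a ratio of 1.45, Xrcc1, a scaffold of break repair, had 3 and 4 with a ratio of 1.24, and Ogg1, the 8-oxoguanine glycosylase, had 3 in each list with a ratio of 1.06.

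The 4 Fanconi genes of the pathway in which Fan1 acts had 12 peaks in each list and a median ratio of 1.01. Fancd2 had 1 peak with DOP and 2 without, Fanca 3 and 2, Fanci 2 in each list and Fancm 6 in each list. Of 4 genes at other loci tied to the onset of Huntington disease, 3 were found in the annotation. These 3 had peaks in both lists, 11 with DOP and 9 without. Their ratios ran from 0.99 to 1.13 with a median of 1.02, beside 1.07 over all genes. The highest ratio was that of Rrm2b, a ribonucleotide reductase subunit gene, with 4 peaks with DOP and 3 without. These values compare the lists and have no replicate error.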
